A study of Rattus norvegicus with 12 samples.

Results

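The IL6 cytokine family and its signalling chain were followed after depletion of 3 RNA-binding proteins in PAC1 cells, which are vascular smooth muscle cells of the rat pulmonary artery grown as a line. The members were taken from the count table by gene symbol, from a list drawn up with earlier results of these data known. They are the ligands Il6, Lif and Il11, the ligand-specific receptors Il6r and Il11ra1, the signalling receptors Il6st, Lifr and Osmr, the transcription factor Stat3 and the inhibitor Socs3. These are 10 of 33294 gene symbols, and 10 of 10 passed the filter on low counts.

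The control group of 3 libraries received the control siRNA C2. The other 3 groups, also of 3 libraries each, received an siRNA against RBPMS, RBFOX2 or QKI and are called RBPMS-KD, RBFOX2-KD and QKI-KD. All groups were PAC1 cells kept in the more differentiated state in serum-containing medium, reverse transfected with 90 pmol of siRNA. The study reports that control cells of this experiment were less differentiated than those of its other RNA-seq experiment. Per the labels, transfection was repeated after 24 h and cells were taken 48 h after the repeat, whereas the study's text gives longer intervals. The comparisons ask which RNA abundances depend on each splicing regulator. PAC1 is an established line, so the libraries of a group are transfections of the same line, and the labels do not say whether they were separate cultures. P-values then measure the spread between these libraries.

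Cytokines of the IL6 family act through a shared receptor chain, gp130, which is encoded by Il6st. IL6 and IL11 first bind a receptor of their own that does not signal (IL6R or IL11RA) and then engage gp130, whereas LIF brings gp130 together with LIFR, and oncostatin M brings gp130 together with OSMR or LIFR. The assembled receptors activate JAK kinases, which phosphorylate STAT3. STAT3 in turn switches on Socs3, whose product binds gp130 and the JAKs and shuts the signal down. Vascular smooth muscle cells make IL6 and LIF and respond to family members during injury and inflammation.

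The sense strands of the siRNAs, as the study's oligonucleotide list gives them, are shown because this reagent is what sets the groups apart. With 1 siRNA per target, loss of the target and other effects of that siRNA cannot be told apart.
C2: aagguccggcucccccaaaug
RBPMS: ggcggcaaagccgagaaggcgaaca
RBFOX2: gcaaugguucagccuuuua
QKI: ggacuuacagcuaaacaac

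Library totals ranged from 111 to 152 M counts. Levels are given as CPM, counts scaled by TMM to a common library total, and a level in CPM is not corrected for transcript length, so it is compared across groups and not between genes. Each targeted transcript was lowest in its own knockdown. Rbpms ranged from 6.96 to 7.54 CPM in RBPMS-KD against 38.9 to 43.7 in control. Rbfox2 ranged from 36.2 to 37.9 CPM in RBFOX2-KD against 151.5 to 159.4 in control. Qk, the gene of QKI, ranged from 26.0 to 27.3 CPM in QKI-KD against 229.1 to 241.6 in control. The knockdowns were not independent at the RNA level, since Rbpms also fell by 0.81 on the log2 scale in RBFOX2-KD and by 0.49 in QKI-KD (adjusted p of 2.10e-09 and 9.32e-07, edgeR). Qk fell by 0.42 in RBFOX2-KD and rose by 0.18 in RBPMS-KD (adjusted p of 1.70e-08 and 2.97e-04, edgeR). Rbfox2 fell by 0.12 in RBPMS-KD and by 0.15 in QKI-KD (adjusted p of 0.0193 and 0.00428, edgeR). In bulk RNA, fewer cells of a type and less RNA per cell cannot be told apart.

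Il6r was the member that fell most, by 3.64-fold in RBFOX2-KD and 3.95-fold in QKI-KD, while Lif and Socs3 rose in every knockdown and Stat3 fell in every knockdown. Lifr rose in RBPMS-KD and RBFOX2-KD, Osmr fell in all knockdowns, and Il11 rose most in QKI-KD. A gene passed the test at an adjusted p under 0.05 in edgeR's quasi-likelihood test, and it is called changed where its absolute log2 fold change was also above 1. In RBPMS-KD, 7 of 10 members passed the test, 4 higher and 3 lower, beside 59.4% of all genes tested (30.4% higher and 29% lower), and 1 (Lif) was changed, beside 9.66%. In RBFOX2-KD, 8 members passed, 4 higher and 4 lower, beside 60.3% of all genes (30.1% in each direction). There 4 were changed, beside 11.7%, with Lifr and Socs3 higher and Il6r and Osmr lower. In QKI-KD, 8 members passed, 3 higher and 5 lower, beside 66.9% (32.9% higher and 34% lower), and 2 (Il6r and Osmr, both lower) were changed, beside 17.5%. The shares of members and of all genes are set side by side and were not tested against each other. The median absolute log2 fold change of the members was 0.43 in RBPMS-KD, 0.51 in RBFOX2-KD and 0.50 in QKI-KD, against 0.33, 0.33 and 0.42 over all 18438 genes tested. The median log2 fold changes of the members were -0.04, -0.08 and -0.21, against 0.0085, 0.015 and 0.0070. The 3 comparisons share the control libraries.

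**Figure D1:**
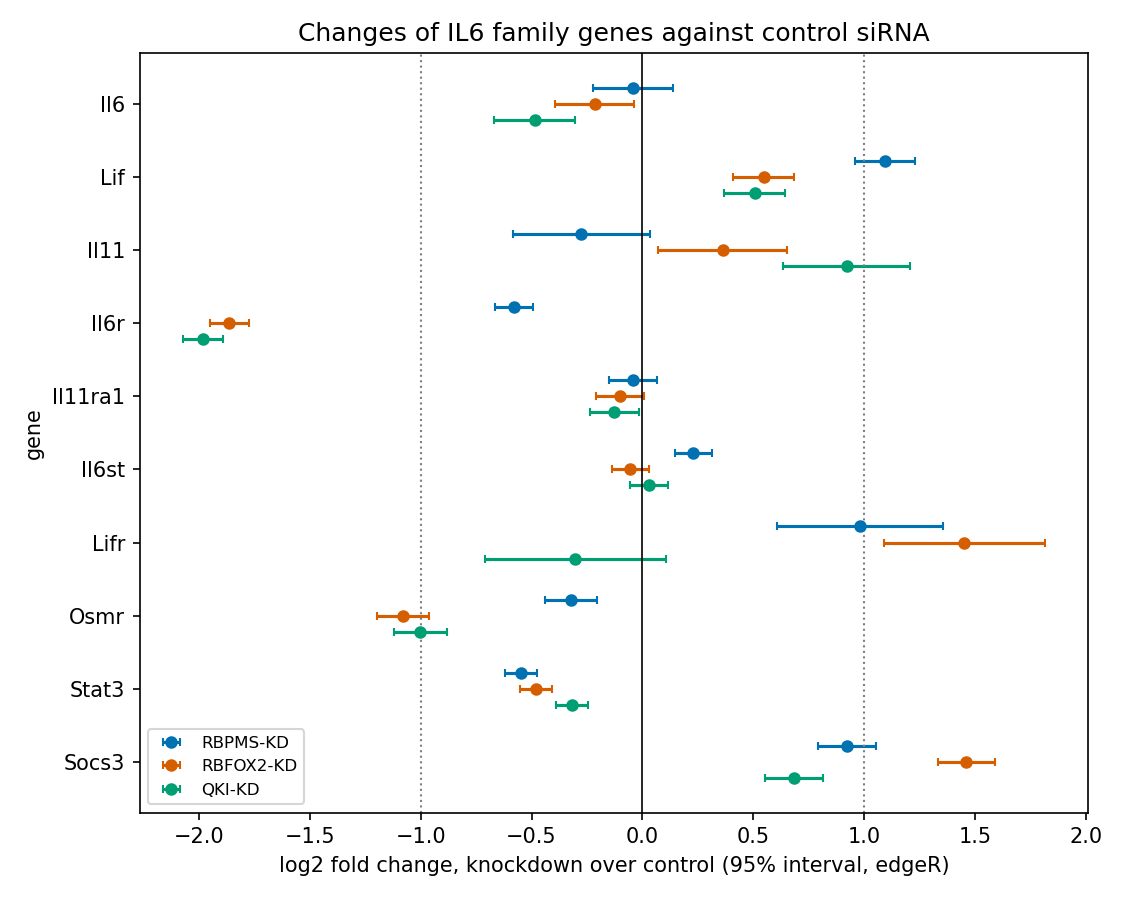
Log2 fold change of each member in each knockdown over control (horizontal axis; points, edgeR estimate; bars, 95% interval; dotted lines, log2 fold changes of -1 and 1). Il6r lies at -1.86 in RBFOX2-KD and -1.98 in QKI-KD, and the Socs3 and Lif points lie above 0 in all 3 knockdowns.

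Lif, the ligand of LIFR and gp130, was at 33.6, 35.1 and 32.3 CPM in the control libraries. It was at 65.1, 70.7 and 80.0 CPM in RBPMS-KD, 50.4, 49.1 and 48.2 in RBFOX2-KD and 49.2, 43.8 and 50.4 in QKI-KD. Every knockdown library lay above every control library, and every RBPMS-KD library above those of the other knockdowns. The rise was 2.13-fold in RBPMS-KD (log2 fold change 1.09, SE 0.065, adjusted p = 2.15e-10, edgeR), 1.46-fold in RBFOX2-KD (0.55, SE 0.065, adjusted p = 1.17e-06) and 1.42-fold in QKI-KD (0.51, SE 0.065, adjusted p = 2.22e-06). Compared directly, Lif was higher in RBPMS-KD than in RBFOX2-KD by a log2 difference of 0.55 (adjusted p = 1.29e-06) and than in QKI-KD by 0.59 (adjusted p = 3.97e-07). RBFOX2-KD and QKI-KD differed by 0.04, with a 95% interval of -0.10 to 0.18 (adjusted p = 0.598).

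Il6, the cytokine that gives the family its name, was measured at 3.52, 3.32 and 3.32 CPM in control, from 431 to 495 counts per library. RBPMS-KD libraries lay at 3.15, 3.24 and 3.48 CPM and overlapped with control. The log2 fold change there was -0.04, with a 95% interval of -0.22 to 0.14 (adjusted p = 0.688, edgeR). RBFOX2-KD libraries lay at 2.83, 2.99 and 2.93 CPM and QKI-KD libraries at 2.58, 2.21 and 2.44, all below control. Il6 fell by 0.49 in QKI-KD on the log2 scale (SE 0.086, adjusted p = 8.39e-05) and by 0.21 in RBFOX2-KD (SE 0.084, adjusted p = 0.0366). The RBFOX2-KD call was lost under 8 of 15 alternative settings, with adjusted p up to 0.115. Il6 was lower in QKI-KD than in RBPMS-KD (0.44, adjusted p = 2.81e-04) and than in RBFOX2-KD (0.27, adjusted p = 0.0104). The latter call was lost without QKI-KD library 2 (adjusted p = 0.0656) and in the authors' normalised table (adjusted p = 0.0979), within a range of 0.00971 to 0.0979 over 15 alternatives.

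Il11, a ligand known for its part in fibrosis, had 82 to 244 counts per library. Control libraries lay at 0.841, 0.893 and 1.07 CPM, RBPMS-KD at 0.771, 0.783 and 0.764, RBFOX2-KD at 1.21, 1.08 and 1.31 and QKI-KD at 1.76, 1.64 and 1.93. The QKI-KD libraries were thus the highest of the 12 and the RBPMS-KD libraries the lowest, and no library of RBPMS-KD overlapped with control. The rise in QKI-KD was 1.90-fold (log2 fold change 0.92, SE 0.135, adjusted p = 1.10e-05, edgeR), under the fold threshold. In RBPMS-KD the log2 fold change was -0.28, with a 95% interval of -0.58 to 0.03 (adjusted p = 0.116). In RBFOX2-KD it was 0.36 (SE 0.138, adjusted p = 0.0316), a call lost under 6 of 14 alternatives. Compared directly, Il11 was 2.29-fold higher in QKI-KD than in RBPMS-KD (log2 difference 1.20 in size, adjusted p = 9.59e-07). It was also higher in QKI-KD than in RBFOX2-KD, by 1.48-fold (adjusted p = 0.00117). The ligands therefore had different orders of groups: RBPMS-KD was the highest group for Lif and the lowest for Il11, and QKI-KD was the highest for Il11 and the lowest for Il6.

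The 250 bases before the start are shown for Il6 and Il11, the ligand members whose window lies outside the gene's annotated span. QKI-KD moved the RNA of these ligands in opposite directions. The sequences are from RefSeq on GRCr8, read along the gene, with motif matches in capitals; Il6 lies on the minus strand at chr4:5894576-5894825 and Il11 on the plus strand at chr1:78098372-78098621. The sequence table held 8 of the 10 members, without Lif and Il11ra1.
Il6: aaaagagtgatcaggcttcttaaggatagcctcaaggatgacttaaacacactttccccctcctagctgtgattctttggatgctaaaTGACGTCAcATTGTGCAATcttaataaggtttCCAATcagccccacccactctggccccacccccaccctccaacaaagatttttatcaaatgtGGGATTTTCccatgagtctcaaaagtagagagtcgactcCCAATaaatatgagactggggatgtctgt
Il11: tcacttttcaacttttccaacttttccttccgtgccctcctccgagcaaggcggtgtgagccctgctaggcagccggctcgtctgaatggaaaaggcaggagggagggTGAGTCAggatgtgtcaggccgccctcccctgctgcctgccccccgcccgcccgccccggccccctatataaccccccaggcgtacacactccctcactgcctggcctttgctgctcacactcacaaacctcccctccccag
The search used 7 motifs on both strands, named by the factor or box they are known for: the TATA box with the letters TATAAA, the CCAAT box, the AP-1 motif with the letters TGANTCA, the cyclic AMP response element (CRE) with the letters TGACGTCA, the STAT motif with the letters TTCNNNGAA, the NF-kB motif with the letters GGGANTTTC and the C/EBP motif with the letters TTNNNCAAT. The Il6 window held a CRE match that began 162 bases before the start, C/EBP matches at 153 and 152 bases that overlap each other, CCAAT boxes at 130 and 29 bases and an NF-kB match, GGGATTTTC, at 68 bases. Among 33465 rat promoters, 1.59% hold the CRE letters, 10.4% the C/EBP letters, 34% a CCAAT box and 0.953% the NF-kB letters. The Il11 window held TGAGTCA, an AP-1 match, 142 bases before the start, and 6.34% of promoters hold the AP-1 letters TGANTCA. Of the other members in the table, Osmr also held an AP-1 match, and Il6r, Lifr and Stat3 held a CCAAT box. None of the 8 windows held TTCNNNGAA, the STAT letters that 7.67% of promoters hold, or TATAAA, the TATA box letters that 12.9% hold. Other forms of these motifs were not searched. A match is a stretch of letters and was not tested as a binding site.

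Il6r, the receptor that captures IL6 before gp130 is engaged, was at 58.2, 59.7 and 59.9 CPM in control. It was at 40.8, 38.1 and 40.1 CPM in RBPMS-KD, 16.04, 16.9 and 15.97 in RBFOX2-KD and 14.6, 15.6 and 14.8 in QKI-KD. The groups did not overlap, in the order control, RBPMS-KD, RBFOX2-KD and QKI-KD, with the last pair close together. Il6r was 3.95-fold lower in QKI-KD (log2 fold change -1.98, SE 0.043, adjusted p = 1.91e-16, edgeR), 3.64-fold lower in RBFOX2-KD (-1.86, SE 0.042, adjusted p = 7.28e-16) and 1.49-fold lower in RBPMS-KD (-0.58, SE 0.041, adjusted p = 1.74e-09). It was higher in RBPMS-KD than in RBFOX2-KD by 2.43-fold (adjusted p = 1.74e-13) and than in QKI-KD by 2.64-fold (adjusted p = 2.38e-14). RBFOX2-KD and QKI-KD differed by 0.12 on the log2 scale (adjusted p = 0.0219), a call that 5 of 15 alternatives lost and that turned to -0.02 in the authors' normalised table.

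Il11ra1, the corresponding receptor for IL11, stayed within a narrow range. Its libraries lay between 25.3 and 26.4 CPM in control, 23.4 and 26.2 in RBPMS-KD, 23.1 and 24.6 in RBFOX2-KD and 22.2 and 24.8 in QKI-KD. The log2 fold changes were -0.04 in RBPMS-KD (95% interval -0.15 to 0.07), -0.10 in RBFOX2-KD (-0.21 to 0.01) and -0.13 in QKI-KD (-0.24 to -0.02). The last passed the test in edgeR (adjusted p = 0.0408) and was lost under 8 of 15 alternatives. No direct comparison between knockdowns passed for Il11ra1. In QKI-KD, where Il11 was 1.90-fold above control, the transcript of its receptor was 1.09-fold below it.

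Il6st, the shared gp130 chain, was among the least altered members. It was at 255.6, 267.6 and 259.3 CPM in control, 312.8, 284.0 and 320.9 in RBPMS-KD, 249.9, 253.1 and 250.8 in RBFOX2-KD and 260.3, 266.2 and 271.8 in QKI-KD. The RBPMS-KD libraries were the highest of the 12, by 1.17-fold on average over control (log2 fold change 0.23, SE 0.040, adjusted p = 9.21e-05, edgeR). The RBFOX2-KD libraries lay just below those of control without overlap, with a log2 fold change of -0.05 (95% interval -0.14 to 0.03, adjusted p = 0.262), and its sign turned with library totals alone and in the authors' normalised table. In QKI-KD it was 0.03 (-0.06 to 0.11, adjusted p = 0.545).

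Lifr, the chain that pairs with gp130 for LIF, had 53 to 96 counts in the control libraries. It was at 0.433, 0.645 and 0.529 CPM in control, 1.13, 0.946 and 1.13 in RBPMS-KD, 1.33, 1.49 and 1.60 in RBFOX2-KD and 0.375, 0.505 and 0.436 in QKI-KD. RBPMS-KD and RBFOX2-KD lay above control and QKI-KD overlapped with it. The rise was 2.74-fold in RBFOX2-KD (log2 fold change 1.45, SE 0.172, adjusted p = 1.18e-06, edgeR) and 1.98-fold in RBPMS-KD (0.98, SE 0.177, adjusted p = 1.28e-04). In QKI-KD the log2 fold change was -0.30, with an interval of -0.71 to 0.10 (adjusted p = 0.178). The direct differences from QKI-KD were 1.75 on the log2 scale for RBFOX2-KD (adjusted p = 1.21e-07) and 1.28 for RBPMS-KD (adjusted p = 1.01e-05). RBFOX2-KD exceeded RBPMS-KD by 1.39-fold (adjusted p = 0.0211), a call that 4 of 14 alternatives lost. Without control library 2, Lifr passed the fold threshold in RBPMS-KD as well, at 1.14, and without RBPMS-KD library 2 at 1.06.

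Osmr, the chain that pairs with gp130 for oncostatin M, was lower than control in every knockdown. It was at 12.6, 13.9 and 13.3 CPM in control, 10.8, 10.6 and 10.5 in RBPMS-KD, 6.52, 6.26 and 6.05 in RBFOX2-KD and 6.89, 6.51 and 6.48 in QKI-KD. No knockdown library overlapped with control. Osmr was 2.11-fold lower in RBFOX2-KD (log2 fold change -1.08, SE 0.056, adjusted p = 3.20e-11, edgeR), 2.00-fold lower in QKI-KD (-1.002, SE 0.056, adjusted p = 4.88e-11) and 1.25-fold lower in RBPMS-KD (-0.32, SE 0.055, adjusted p = 7.61e-05). The QKI-KD value sits on the fold threshold and ranged from -1.04 to -0.87 over 15 alternatives, so its call as changed was lost in some while its adjusted p stayed at or below 1.88e-09. RBFOX2-KD and QKI-KD differed by -0.08, with an interval of -0.20 to 0.04 (adjusted p = 0.242).

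**Figure D2:**
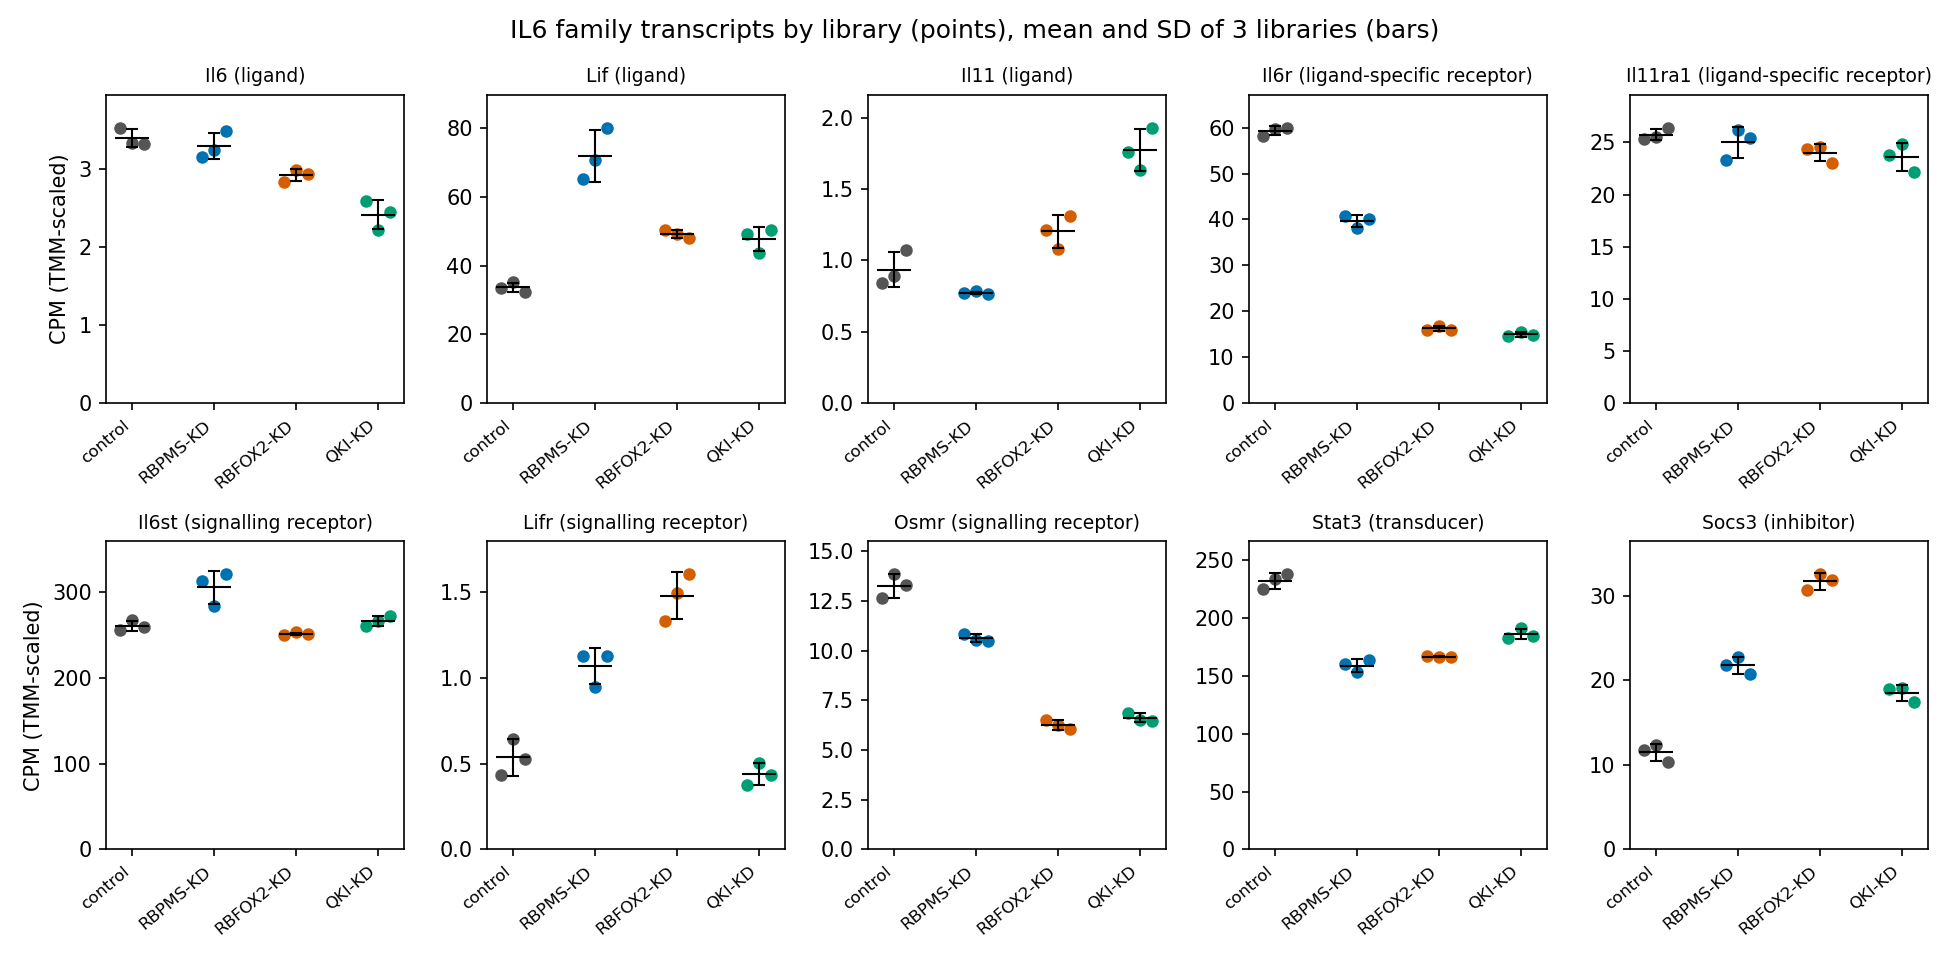
CPM of each member (vertical axes, linear and from 0) in the 12 libraries by group (points), with the mean and SD of 3 libraries (bars). Il6r falls from 58.2 to 59.9 CPM in control to 14.6 to 15.6 in QKI-KD, and Lifr rises to 1.33 to 1.60 CPM in RBFOX2-KD while Osmr drops to 6.05 to 6.52.

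Stat3, the transcription factor at the end of the chain, was at 224.3, 233.1 and 237.4 CPM in control. It was at 159.9, 152.7 and 163.2 CPM in RBPMS-KD, 166.6, 165.6 and 166.4 in RBFOX2-KD and 182.5, 190.9 and 184.0 in QKI-KD. No knockdown library reached the lowest control library. Stat3 fell by 0.55 on the log2 scale in RBPMS-KD (SE 0.035, adjusted p = 4.84e-10, edgeR), by 0.48 in RBFOX2-KD (SE 0.034, adjusted p = 2.11e-09) and by 0.32 in QKI-KD (SE 0.034, adjusted p = 2.79e-07). QKI-KD stayed above RBPMS-KD by 0.23 in size (adjusted p = 1.87e-05) and above RBFOX2-KD by 0.16 (adjusted p = 5.07e-04), while RBPMS-KD and RBFOX2-KD differed by -0.07 (interval -0.14 to 0.01, adjusted p = 0.107). That difference passed under 3 of 15 alternatives and reached -0.17 with library totals alone (adjusted p = 4.68e-04) and -0.15 in the authors' normalised table (adjusted p = 7.32e-04).

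Socs3, the feedback inhibitor that STAT3 is known to induce, was at 11.7, 12.4 and 10.4 CPM in control. It was at 21.8, 22.8 and 20.8 CPM in RBPMS-KD, 30.6, 32.5 and 31.9 in RBFOX2-KD and 18.9, 19.1 and 17.4 in QKI-KD. The groups did not overlap, in the order control, QKI-KD, RBPMS-KD and RBFOX2-KD. The rise was 2.76-fold in RBFOX2-KD (log2 fold change 1.46, SE 0.061, adjusted p = 1.80e-12, edgeR), 1.89-fold in RBPMS-KD (0.92, SE 0.062, adjusted p = 9.81e-10) and 1.61-fold in QKI-KD (0.68, SE 0.062, adjusted p = 2.73e-08). RBFOX2-KD exceeded RBPMS-KD by a log2 difference of 0.54 in size (adjusted p = 6.32e-07) and QKI-KD by 0.78 (adjusted p = 2.96e-09). The smaller difference between RBPMS-KD and QKI-KD, 0.24 (adjusted p = 0.00242), was lost with library totals alone and in the authors' normalised table.

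Over the direct comparisons of knockdowns, RBPMS-KD and RBFOX2-KD differed in 7 of 10 members by adjusted p, beside 56.7% of all genes tested, and 1 member (Il6r) was changed, beside 7.52%. RBPMS-KD and QKI-KD differed in 9 members, beside 61%, and 3 (Il6r and Lifr higher and Il11 lower in RBPMS-KD) were changed, beside 12.2%. RBFOX2-KD and QKI-KD differed in 6 members, beside 68.5%, and 1 (Lifr) was changed, beside 18.4%. Each knockdown enters more than 1 of these comparisons. The members that did not pass between RBFOX2-KD and QKI-KD were Lif, Il11ra1, Il6st and Osmr, with 95% intervals that reached no farther from 0 than -0.20 (Osmr). Of these, Il6st passed under 5 of 15 alternatives, with values from -0.11 to -0.07 over all of them, and Osmr passed at -0.24 in the authors' normalised table (adjusted p = 0.00163).

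Ratios of raw counts within a library do not depend on how libraries are scaled, and they are given as descriptions. For every 100 Osmr counts there were 3.43 to 4.65 Lifr counts in control, 8.96 to 10.8 in RBPMS-KD, 20.4 to 26.5 in RBFOX2-KD and 5.45 to 7.75 in QKI-KD. The ratio of these alternative gp130 partners was therefore above control in every knockdown library, also in QKI-KD, where Lifr itself overlapped with control. Osmr and Lifr are neighbours on rat chromosome 2 in the GRCr8 annotation, with 0 protein-coding genes and 1 pseudogene between them. For every 100 Il6st counts there were 22.3 to 23.1 Il6r counts in control, 12.5 to 13.4 in RBPMS-KD, 6.37 to 6.66 in RBFOX2-KD and 5.44 to 5.86 in QKI-KD. The transcript of the IL6-binding receptor thus fell relative to that of the chain it engages. For every 100 Stat3 counts there were 4.38 to 5.32 Socs3 counts in control, 12.7 to 14.9 in RBPMS-KD, 18.4 to 19.7 in RBFOX2-KD and 9.46 to 10.4 in QKI-KD, so that the inhibitor rose against the factor in every knockdown library.

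**Figure D3:**
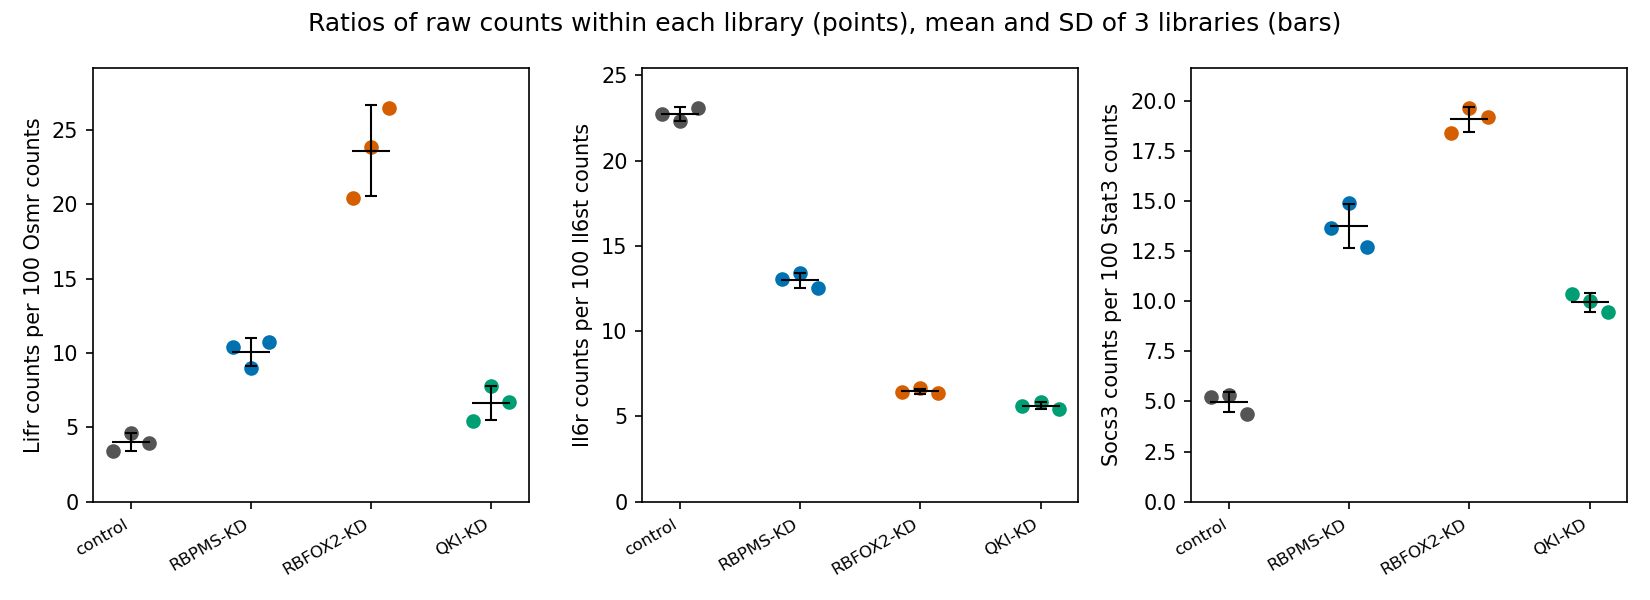
Raw counts of 1 member per 100 raw counts of another in each library (points), with mean and SD of 3 libraries (bars), for Lifr over Osmr, Il6r over Il6st and Socs3 over Stat3 on linear axes from 0. The RBFOX2-KD libraries hold 20.4 to 26.5 Lifr counts per 100 Osmr counts against 3.43 to 4.65 in control.

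Counts of list genes that passed the test are read beside those over all genes: 30.4% higher and 29% lower in RBPMS-KD, 30.1% in each direction in RBFOX2-KD, and 32.9% higher and 34% lower in QKI-KD. No list was tested against these shares. Of 8 other ligands of the family, 6 had enough counts to be tested. In RBPMS-KD, 1 was higher and 3 lower, in RBFOX2-KD 2 higher and 1 lower and in QKI-KD 2 higher and 2 lower, with median log2 fold changes of -0.28, -0.09 and -0.25. Of the other receptors, 2 of 4 could be tested. Cntfr, the receptor of ciliary neurotrophic factor, stood apart and is named after its values were seen. It rose 23.6-fold in QKI-KD (log2 fold change 4.56, SE 0.273, adjusted p = 1.10e-10, edgeR), from a mean of 17.3 counts in control to 381 in QKI-KD, or from 0.124 ± 0.0563 to 3.02 ± 0.139 CPM (SD, n = 3). In RBFOX2-KD it was lower by 2.88-fold (adjusted p = 0.00918), with a mean of 6 counts against 17.3.

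Among 10 JAK kinases and other STATs, 1 was higher and 6 lower in RBPMS-KD, 3 higher and 3 lower in RBFOX2-KD and 2 higher and 6 lower in QKI-KD, with medians of -0.23, 0.03 and -0.37. The counts in RBFOX2-KD match the share of all genes, 30.1% in each direction. Of the kinases that gp130 can bind, Jak1 and Jak2 had log2 fold changes between -0.22 and 0.12, and Tyk2 fell from 64.1 CPM in control to 54.6 in RBPMS-KD, 53.1 in RBFOX2-KD and 46.7 in QKI-KD (adjusted p of 8.68e-05, 1.57e-05 and 2.04e-08, edgeR). Stat2, which acts mainly in interferon signalling, rose by 1.05 in RBFOX2-KD (SE 0.047, adjusted p = 3.76e-12, edgeR), by 0.65 in QKI-KD and by 0.44 in RBPMS-KD. Stat3 therefore fell in all knockdowns and Stat2 rose in all.

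Among 15 other inhibitors of JAK-STAT signalling, 4 were higher and 8 lower in RBPMS-KD, 2 higher and 8 lower in RBFOX2-KD and 2 higher and 10 lower in QKI-KD, beside 29%, 30.1% and 34% of all genes lower. The median log2 fold changes were -0.17, -0.09 and -0.27. Socs2, an inhibitor of growth hormone signalling, fell by 1.59 in QKI-KD (SE 0.076, adjusted p = 4.95e-12, edgeR), by 0.71 in RBPMS-KD and by 0.38 in RBFOX2-KD. Socs5, another member of the family, fell by 1.48 in QKI-KD (SE 0.037, adjusted p = 1.26e-15), by 0.42 in RBPMS-KD and by 0.15 in RBFOX2-KD. Socs1, the relative closest to Socs3 in action, was at a log2 fold change of -0.03 in RBPMS-KD (adjusted p = 0.848), 0.13 in RBFOX2-KD (adjusted p = 0.343) and 0.45 in QKI-KD (adjusted p = 0.00155).

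Among 22 tested of 25 genes known as STAT3 targets, 10 were higher and 5 lower in RBPMS-KD, 8 higher and 6 lower in RBFOX2-KD and 4 higher and 13 lower in QKI-KD, where 32.9% of all genes were higher and 34% lower. The median log2 fold change was 0.21 in RBPMS-KD, 0.0089 in RBFOX2-KD and -0.29 in QKI-KD, against 0.0085, 0.015 and 0.0070 over all genes. Ccl2, a monocyte chemokine, rose 5.63-fold in RBPMS-KD, to 66.8 CPM from 11.8 (log2 fold change 2.49, SE 0.135, adjusted p = 6.80e-11, edgeR), and by 0.86 in RBFOX2-KD and 1.25 in QKI-KD. Myc, a growth regulator, rose by 1.29 in RBPMS-KD (adjusted p = 3.79e-13) and by 0.78 in RBFOX2-KD, and in QKI-KD its log2 fold change was 0.0078 (adjusted p = 0.893). Ccnd1, the cell cycle protein cyclin D1, fell by 2.23 in QKI-KD (SE 0.037, adjusted p = 6.71e-18) but rose by 0.30 in RBFOX2-KD and 0.23 in RBPMS-KD. Fos, an AP-1 subunit, fell by 1.04 in QKI-KD and by 1.03 in RBFOX2-KD (adjusted p of 1.56e-06 and 2.29e-06), and in RBPMS-KD it was at 0.19 (adjusted p = 0.193). Tnfrsf1a, the main TNF receptor, fell by 1.05 in RBFOX2-KD (adjusted p = 1.53e-13) and by 0.14 in each of the other knockdowns.

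Of 4 genes for shedding of receptors such as IL6R from the cell surface, 1 was higher and 3 lower in RBPMS-KD and in RBFOX2-KD, and 0 passed in QKI-KD, where log2 fold changes lay between -0.09 and 0.09. Adam17, the main sheddase of IL6R, fell by 0.42 in RBFOX2-KD (adjusted p = 4.03e-09, edgeR) and by 0.10 in RBPMS-KD (adjusted p = 0.0108). Among 9 regulators of Il6 mRNA decay, 6 were higher and 0 lower in RBPMS-KD, 6 higher and 1 lower in RBFOX2-KD and 1 higher and 5 lower in QKI-KD, with medians of 0.15, 0.29 and -0.23. Over all genes, 30.4%, 30.1% and 32.9% were higher and 29%, 30.1% and 34% lower, in the same order. Zfp36l1, a protein that binds AU-rich elements and speeds decay, fell by 0.97 in QKI-KD and rose by 0.50 in RBFOX2-KD and 0.19 in RBPMS-KD (adjusted p of 5.91e-11, 3.41e-07 and 0.00524). Zc3h12a, which encodes the RNase regnase-1 that cuts Il6 mRNA, rose by 0.36 in QKI-KD, 0.29 in RBFOX2-KD and 0.30 in RBPMS-KD. Jak1, Jak2, Tyk2, Socs1, Adam17, Zfp36l1 and Zc3h12a are named here for their known role, after their values were seen. Among 13 NF-kB pathway genes, 7 were higher and 2 lower in RBPMS-KD, 6 higher and 4 lower in RBFOX2-KD and 5 higher and 6 lower in QKI-KD, with medians of 0.20, 0.11 and -0.06. Tnfaip3, the inhibitor A20, rose by 1.26 in RBPMS-KD (SE 0.070, adjusted p = 8.97e-11), by 0.68 in QKI-KD and by 0.41 in RBFOX2-KD.

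**Figure D4:**
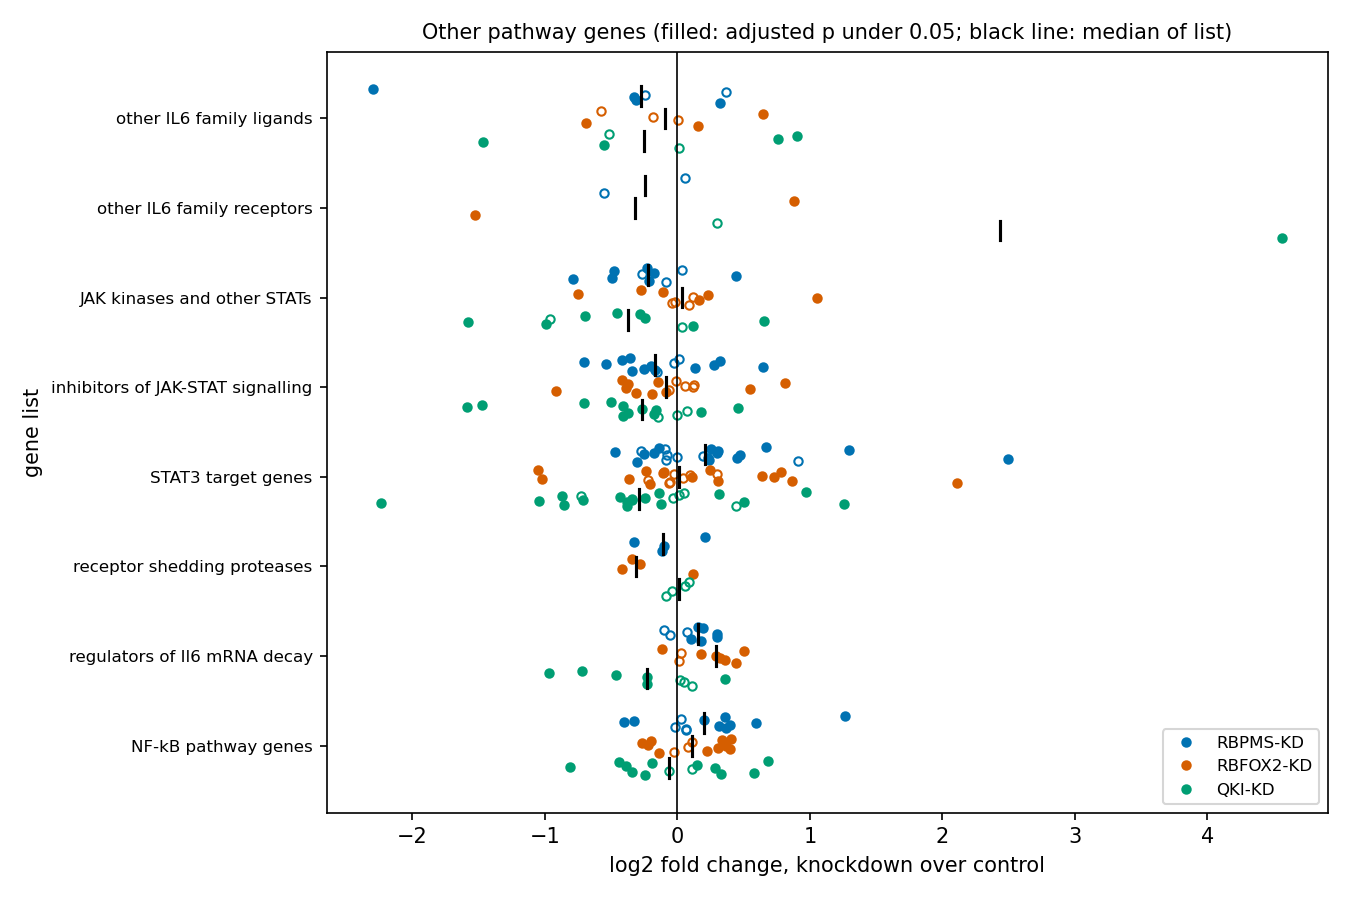
Log2 fold change over control (horizontal axis) of each tested gene in 8 lists of pathway genes, by knockdown (colours; filled, adjusted p under 0.05; black lines, median of the list). The STAT3 targets have medians of 0.21 in RBPMS-KD and -0.29 in QKI-KD, and Cntfr is the point at 4.56.

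The identity of the cells was checked with marker lists, none of which had a gene at or below 3 counts in all libraries. The summed CPM of 8 smooth muscle markers ranged from 2109 to 2175 in control, 1069 to 1176 in RBPMS-KD, 827 to 925 in RBFOX2-KD and 1441 to 1526 in QKI-KD. Acta2, Tagln and Myl9 carried most of this sum, and the list was mixed: 2 markers were higher and 6 lower in RBPMS-KD, and 2 higher and 5 lower in each of RBFOX2-KD and QKI-KD. Over all genes tested, 30.4% were higher and 29% lower in RBPMS-KD, 30.1% in each direction in RBFOX2-KD, and 32.9% and 34% in QKI-KD. Myh11 rose from 6.48 to 13.4 CPM in RBFOX2-KD, Myocd rose from 22.1 to 38.1 CPM in QKI-KD, and Tagln in QKI-KD was at 703.8 CPM against 687.2 (adjusted p = 0.592, edgeR).

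Markers of other cell types were also followed. Their counts stand beside 30.4%, 30.1% and 32.9% of all genes higher in RBPMS-KD, RBFOX2-KD and QKI-KD. The shares lower were 29%, 30.1% and 34%, and no marker list was tested against these shares. Leukocyte markers summed to 38.5 to 40.03 CPM in control and to 53.1 to 60.7, 53.9 to 55.2 and 44.3 to 45.6 in RBPMS-KD, RBFOX2-KD and QKI-KD, most of it Cd14. Of 6 tested, 2, 3 and 2 were higher and 0 lower, among them Csf1r in QKI-KD, from 0.405 to 3.63 CPM, and Cd68, from 1.04 to 1.98 CPM, while Ptprc and Itgam had group means of at most 2 and 6.67 counts. Endothelial markers summed to 8.75 to 10.8 CPM in control, 8.90 to 9.18 in RBPMS-KD, 5.22 to 5.81 in RBFOX2-KD and 6.53 to 6.86 in QKI-KD. Of 5 tested, 3 were higher and 1 lower in RBPMS-KD, 0 higher and 2 lower in RBFOX2-KD and 3 higher and 1 lower in QKI-KD. Cdh5 led that sum with 6.77 CPM in control and 2.98 in QKI-KD, Pecam1 rose from 0.0923 to 0.302 CPM in RBPMS-KD, and Kdr had a mean of at most 2.67 counts. Epithelial markers summed to 29.5 to 31.7 CPM in control, 36.3 to 44.2 in RBPMS-KD, 71.98 to 73.9 in RBFOX2-KD and 32.3 to 34.3 in QKI-KD, nearly all of it Krt8. Of 3 tested, 1, 1 and 2 were higher and 0 lower. In QKI-KD these were Epcam, from a mean of 8 to 46.3 counts, and Cdh1, from 11.3 to 48.7 counts. The marker genes singled out here were chosen after their values were seen. The part of these shifts in the values of the IL6 family was not tested.

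The genes most like 3 members in pattern were sought over the 12 libraries by Pearson's r of log2 CPM, for the members with the widest range of group means among those with at least 1 CPM on average, and among genes with at least 5 CPM. The points share libraries and groups, so r describes the 4 groups more than 12 separate observations. Il6r was most like Fkbp14 (r = 0.994), Carnmt1 (0.992) and Cap1 (0.991). Fkbp14, an enzyme of collagen folding, fell from 50.8 ± 0.762 CPM in control to 41.0 ± 0.463 in RBPMS-KD, 17.1 ± 0.575 in RBFOX2-KD and 15.3 ± 0.697 in QKI-KD (SD, n = 3), nearly as far as Il6r. Socs3 was most like Fam214b (0.988), Ctxn3 (0.984) and Ddx39b (0.984). Il11 was most like Fam178b (0.979), Adra1b (0.973), an adrenergic receptor of smooth muscle, and F3 (0.973), the coagulation starter tissue factor. F3 went from 12.1 ± 0.373 CPM in control to 8.91 ± 0.938 in RBPMS-KD, 18.1 ± 1.19 in RBFOX2-KD and 38.8 ± 1.98 in QKI-KD. F3 shared its order of groups with Il11, which its choice by a high r favours. Such likeness was common, since 305 of 10706 genes had an r above 0.9 with Il6r, 264 with Socs3 and 117 with Il11.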

How the data were processed

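RNA from 12 PAC1 libraries in 4 groups of 3 was poly(A)-selected and sequenced as paired ends with a strand-specific kit, and groups and replicate numbers come from the sample titles. Per the study's methods and its processing notes, reads were aligned with STAR to mRatBN7.2. The authors deposited raw counts per gene made with featureCounts, and a normalised signal table that they made from these counts by a noise filter and quantile normalisation, used here only as an alternative. How reads shared between genes were counted is not given in the sources used here. Of values from 1 to 19, 68.1% were even, against 50.9% above 1000, so counts may overstate the number of fragments. The study's methods describe subsampling of all samples to a uniform depth, whereas the totals here ranged from 111 to 152 M counts.

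The edgeR package (version 4.0.16, R version 4.3.3) was run on the counts after a filterByExpr filter with a minimum count of 10, which left 18438 genes. Libraries were scaled by TMM, and all 12 libraries entered 1 fit with a coefficient per group (glmQLFit and glmQLFTest, two-sided). P-values were adjusted by Benjamini-Hochberg over all genes tested. The SE is the absolute log2 fold change divided by the square root of F, and levels are CPM with the SD of 3 libraries. An exact permutation test of 3 against 3 libraries cannot give a p below 0.1. The precision rests on library totals of 111 to 152 M counts and on the spread between replicates. That spread was larger than sampling noise (chi-square per degree of freedom 4.64 to 57.8). The highest values, 57.8 and 45.6, came from the pairs with RBPMS-KD 2. RBPMS-KD 1 and RBPMS-KD 3 gave 9.27, and pairs in the other groups gave at most 21.5. The pipeline was tested on simulated data as a check of the code. That simulation altered few genes, whereas most genes passed the test here, so it does not bear on these calls. Labels give no sequencing batch.

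The members and the gene lists were chosen with earlier results of these data known. Besides the members and the siRNA targets, list genes were named where changed in at least 1 knockdown with a mean of at least 5 CPM. A gene that met this rule is not reported here. Alternatives were RLE factors, library totals, other low-count filters, halved counts, a replicate block, only the 6 libraries compared, DESeq2 1.42.0, limma 3.58.1 on log2(signal + 1) of the authors' table, and leaving out each library. Promoters and neighbours come from RefSeq on GRCr8, which differs from the authors' build. Splicing was not analysed here.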

Additional observations from a re-analysis of the deposited data

How the results depend on the processing

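Over the alternatives, 826 of the members' log2 fold changes kept their direction and their side of the adjusted p threshold, 36 lost the threshold, 13 gained it and 13 changed sign. By adjusted p alone the counts of members were 7, 8 and 8 against control in RBPMS-KD, RBFOX2-KD and QKI-KD, and 7, 9 and 6 between RBPMS-KD and RBFOX2-KD, RBPMS-KD and QKI-KD, and RBFOX2-KD and QKI-KD. In QKI-KD against control 1 member was changed in place of 2 with RLE factors, halved counts, a mean of at least 200 counts, DESeq2 and the authors' table, because Osmr lies on the fold threshold. With a mean of at least 200 counts, 1 member was changed between RBPMS-KD and QKI-KD and 0 between RBFOX2-KD and QKI-KD, since Il11 and Lifr were then not tested. With library totals alone the 2 members changed in QKI-KD were Il6r and Il11 (1.01), not Osmr (-0.92).

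Leaving out 1 library at a time gave 1 to 2 changed members in RBPMS-KD, 4 to 4 in RBFOX2-KD, 1 to 3 in QKI-KD, 1 to 1 between RBPMS-KD and RBFOX2-KD, 3 to 3 between RBPMS-KD and QKI-KD and 1 to 1 between RBFOX2-KD and QKI-KD. The count in RBPMS-KD was 2 without control 2 or RBPMS-KD 2 (Lifr). The count in QKI-KD was 1 without control 2 (Osmr -0.97), QKI-KD 2 (-0.99) or QKI-KD 3 (-0.99), and 3 without control 3 (Il11 1.03). Single values near 0 also moved across it. Over these fits Il11ra1 ranged from -0.080 to 0.0036 in RBPMS-KD against control and from -0.026 to 0.053 in RBFOX2-KD against QKI-KD, and Lif from -0.029 to 0.071 in the latter. The sign turned for Il11ra1 without RBPMS-KD 1 (RBPMS-KD against control, 0.0036), without RBFOX2-KD 2 (-0.0015) and without QKI-KD 3 (-0.026; both RBFOX2-KD against QKI-KD), and for Lif between the same groups without QKI-KD 2 (-0.029).

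With library totals alone the sign turned for Il6st in RBFOX2-KD (3.8e-04) and for Il11ra1 between knockdowns (-0.040 for RBPMS-KD and RBFOX2-KD, -0.046 for RBPMS-KD and QKI-KD, -0.0057 for RBFOX2-KD and QKI-KD). In the authors' table it turned for Il6st in RBFOX2-KD (0.018), Il6 in RBPMS-KD (0.052), Il6r between RBFOX2-KD and QKI-KD (-0.023) and Il11ra1 between RBPMS-KD and QKI-KD (-0.041) and RBFOX2-KD and QKI-KD (-0.053). The cause of these turns was not tested, and the values turned lie near 0. Library totals moved the median of all genes to -0.11 between RBPMS-KD and RBFOX2-KD, where 458 of 1477 changed genes were then higher in place of 572 of 1386, and to -0.12 between RBPMS-KD and QKI-KD, with 957 of 2313 in place of 1204 of 2248.

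Deviations from the group mean had r from -0.34 to 0.25 between same-numbered libraries (18 pairs, 4 above 0.1). Of 12 libraries, 3 correlated best with their own number. The labels do not say whether a shared number stands for a shared culture or batch, and this was not tested. With the replicate block the counts of changed members were 1, 4 and 2 against control and 1, 3 and 1 between knockdowns, as without it. Depth limits Il11 and Lifr, whose 52 to 244 counts per library give the widest intervals.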
